A study of Mus musculus with 8 samples.

Results

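Imprinted genes are transcribed from the maternal or the paternal chromosome only, under DNA methylation marks set in the germ line, and most of them lie in domains that share 1 control region. Many are active in the hypothalamus, where they are studied for feeding, growth and maternal behaviour. Several domains pair a protein-coding gene read from one parental chromosome with a long non-coding RNA read from the other, as Dlk1 (paternal) with Meg3, Rian and Mirg (maternal). The genes described here were 38 imprinted genes of the mouse, each taken by the probe sets that the array's annotation assigns to it and to no other gene. 35 of the 38 had at least 1 such probe set, 97 in all of 45101 on the array, and 25 genes (49 probe sets) passed the filter on low values. An array of this kind sums both parental alleles, so no value below says which allele was read.

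The study profiled hypocretin neurons of mice of the bacterial artificial chromosome transgenic line Hcrt JD218, on a mixed Fvb and c57/bl6j background. The transgene is used for translating ribosome affinity purification, which pulls down tagged ribosomes of 1 cell type with their bound RNA. The comparison is of 4 immunoprecipitates, holding RNA on tagged ribosomes, with the 4 unbound fractions left over from them, taken as RNA of the whole dissected tissue. All mice carried the transgene and were 6 to 12 weeks old, male and female, and each sample pooled thalamus and hypothalamus of 5 of them. A precipitate from wild-type tissue was not analysed here, and the cells in which this line drives the tag are not described in the labels beyond the name.

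The purification and its limits show in other genes. Hcrt was 32.5-fold higher in the immunoprecipitate (limma, 5.02 ± 0.25 SE on the log2 scale and adjusted p = 6.5e-07). All 6 listed markers of hypocretin neurons, Hcrt among them, were called higher, where 4.74% of all tested genes were. The 6 were chosen with earlier results of these data known, so their calls are not an independent check. Markers of other cells were called lower in 9 of 9 tested for astrocytes, 7 of 7 for oligodendrocytes and 7 of 7 for microglia. The counts were 4 of 4 for endothelial and mural cells, 6 of 6 for thalamic neurons and 2 of 2 for leptomeningeal fibroblasts. For the choroid plexus 1 of 2 was called lower, and Ttr was not called. Of all tested genes 44.2% were called lower. Markers of other cells still gave signal. The mean log2 level of the oligodendrocyte markers ran from 9.72 to 11.22 on the immunoprecipitate arrays and from 12.66 to 13.05 on the unbound arrays. Over all tested probe sets the median log2 fold change was -0.87, so values near it mark genes that moved with the bulk of the array. The fractions differ in cell type and in ribosome binding at once, and fewer cells of a type and less RNA per cell cannot be told apart in either.

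The promoters of 4 members are printed because the results turn on these genes: Dlk1, Nnat and Plagl1, which were higher in the immunoprecipitate, and Meg3, which was lower although it lies in the domain of Dlk1. Each is the 250 bases before a RefSeq start in GRCm38.p6, on the plus strand, and capitals mark CpG, the dinucleotide that carries imprinting methylation. The windows are chr12:109452573-109452822 (Dlk1), chr12:109540746-109540995 (Meg3), chr2:157559828-157560077 (Nnat) and chr10:13090582-13090831 (Plagl1). RefSeq gives the whole Dlk1 gene as chr12:109452485-109463336, so the Dlk1 window lies inside the gene, downstream of its outermost start.
Dlk1: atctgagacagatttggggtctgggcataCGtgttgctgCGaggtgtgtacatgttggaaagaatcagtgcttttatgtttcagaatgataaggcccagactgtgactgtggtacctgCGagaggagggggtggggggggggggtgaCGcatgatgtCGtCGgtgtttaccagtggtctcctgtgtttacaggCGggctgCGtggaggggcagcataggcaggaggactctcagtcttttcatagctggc
Meg3: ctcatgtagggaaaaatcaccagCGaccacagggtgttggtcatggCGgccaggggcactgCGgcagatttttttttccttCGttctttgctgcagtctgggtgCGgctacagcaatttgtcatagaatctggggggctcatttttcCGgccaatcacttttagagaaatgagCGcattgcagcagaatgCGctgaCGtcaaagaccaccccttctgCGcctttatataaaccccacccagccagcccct
Nnat: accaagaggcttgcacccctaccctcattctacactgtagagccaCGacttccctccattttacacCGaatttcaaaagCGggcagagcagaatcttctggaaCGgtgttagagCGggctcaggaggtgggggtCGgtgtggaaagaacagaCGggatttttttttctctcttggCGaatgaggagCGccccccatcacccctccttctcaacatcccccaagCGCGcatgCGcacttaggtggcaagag
Plagl1: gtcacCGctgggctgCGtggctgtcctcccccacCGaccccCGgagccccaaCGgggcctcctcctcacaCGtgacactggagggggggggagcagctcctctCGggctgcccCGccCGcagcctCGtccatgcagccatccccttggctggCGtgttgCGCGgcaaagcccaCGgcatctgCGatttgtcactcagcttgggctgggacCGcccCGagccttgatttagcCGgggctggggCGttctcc
RefSeq lists a second Meg3 start, whose window at chr12:109545148-109545397 held 0 CpG and neither TGCCGC nor TGACGTCA. In the windows printed, Dlk1 held 8 CpG, Meg3 10, Nnat 12 and Plagl1 19, where the median over 32851 mouse promoter windows of this length was 6 and the upper quartile 16. Plagl1 alone of the 4 lay above that quartile. The hexamer TGCCGC, bound by the imprint protector Zfp57, was found on either strand in Meg3 and Plagl1 and in 8.68% of all windows. The cyclic AMP response element TGACGTCA was found in Meg3, beginning 57 bases before the start, and in 1.55% of all windows. This motif was chosen after the windows were read. Neither GGGGCCCC, a site of the factor Plagl1 (0.889% of windows), nor TAATTA, a homeodomain core (4.84%), was found in these 4 windows on either strand. These and TGACGTCA are their own reverse complements, and no motif searched contains another.

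Among the 25 tested genes 3 were called higher and 8 lower in the immunoprecipitate, where a call needed 2-fold and an adjusted p under 0.05 by limma. Of all 10398 tested genes 4.74% were called higher and 44.2% lower, against 12.0% and 32.0% of the imprinted genes. The median log2 fold change was -0.45 for the imprinted genes and -0.85 for all tested genes. Genes that passed the filter only through the fraction where they were high had to differ, so these shares describe the tested genes and not the whole list. The fractions did not overlap on any array for 5 imprinted genes that were higher and 12 that were lower, where 6.53% and 50.6% of all tested genes did so. The 3 called higher were Nnat, Plagl1 and Dlk1, all protein-coding and paternally expressed. Both tested non-coding RNAs, Meg3 and Rian, were called lower, and they are maternally expressed.

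**Figure D1:**
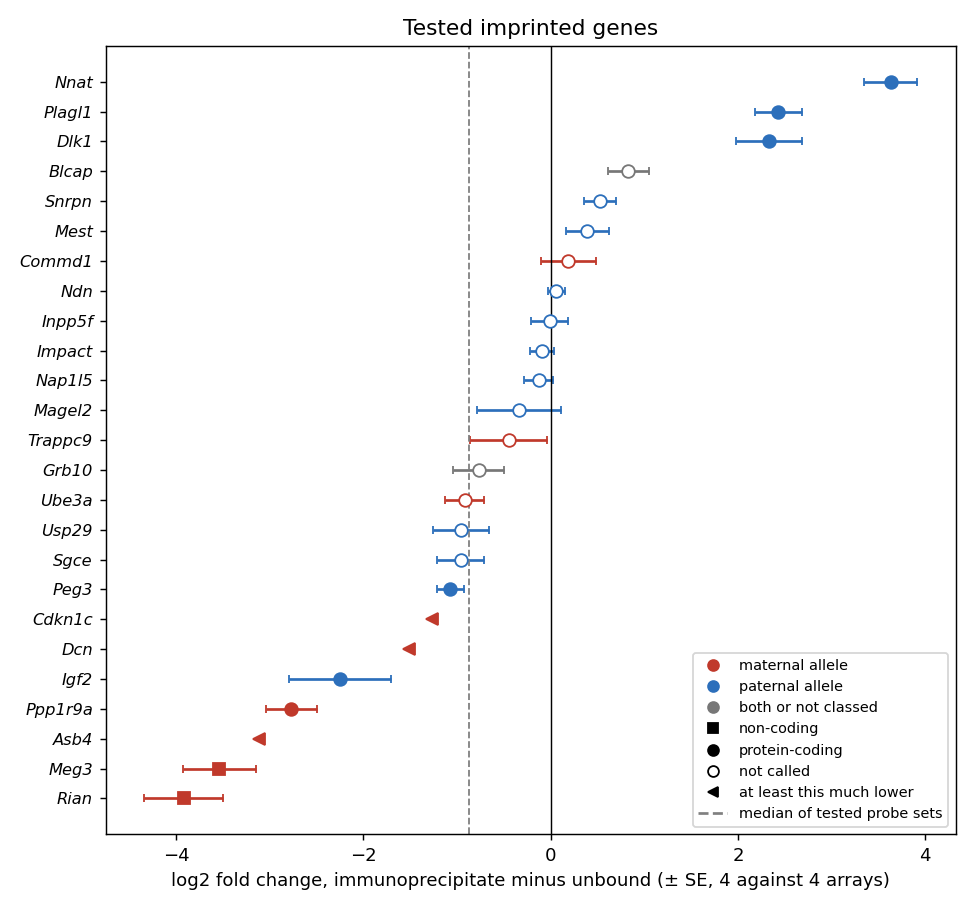
Log2 fold change (immunoprecipitate minus unbound, ± SE, 4 against 4 arrays) of the 25 tested imprinted genes, with red for the maternal and blue for the paternal allele, squares for non-coding RNAs, open symbols for genes that were not called and triangles for genes under 50 on some or all immunoprecipitate arrays, at the smallest size their drop can have. Nnat, Plagl1 and Dlk1 lie above 2 and Rian and Meg3 at the lower end, with the dashed line at the median of all tested probe sets, -0.87.

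Nnat, which encodes the small membrane proteolipid neuronatin, had the largest rise of the 25 by the brightest probe set of each gene. Its log2 levels were 12.98, 13.78, 13.83 and 13.38 on immunoprecipitate arrays 1 to 4 and 9.19, 10.33, 9.82 and 10.12 on the unbound arrays. The fractions were far apart, and the lowest immunoprecipitate lay above the highest unbound fraction. The log2 fold change was 3.63 ± 0.28 (SE), 12.3-fold, with a limma adjusted p of 6.3e-06, and the immunoprecipitate was higher in 4 of 4 pairs. Of all tested genes 99.5% had a lower fold change. Blcap, a small membrane protein gene whose intron holds Nnat and whose isoforms differ in their expressed allele, stood at 13.2, 13.5, 13.45 and 13.91 in the immunoprecipitates and at 12.57, 12.48, 12.44 and 13.26 in the unbound fractions. The fractions overlapped, and its log2 fold change of 0.83 ± 0.22 (limma adjusted p = 0.0074) did not reach 2-fold. Nnat minus Blcap within an array, a difference that no scaling by a constant can alter, lay between -0.54 and 0.39 in the immunoprecipitates and between -3.37 and -2.15 in the unbound fractions.

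Plagl1, a zinc finger transcription factor that regulates a network of other imprinted genes, stood at 14.37, 14.39, 14.45 and 14.17 in the immunoprecipitates. The unbound fractions were lower and more spread, at 12.65, 11.8, 11.3 and 11.92. The log2 fold change was 2.43 ± 0.25 (SE), 5.38-fold, with a limma adjusted p of 3.2e-05. A second Plagl1 probe set was above a linear value of 50 on 1 array, an immunoprecipitate, with log2 levels from 4.74 to 5.96 in that fraction and 2.15 on all unbound arrays. It was not tested, and the remaining Plagl1 probe set lay under 50 on all 8 arrays.

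Dlk1 encodes a membrane protein with EGF-like repeats related to Notch ligands. Its levels were 12.8, 13.31, 13.54 and 13.85 in the immunoprecipitates and 10.16, 10.92, 11.26 and 11.85 in the unbound fractions. Within every pair the immunoprecipitate was higher, by 2.65, 2.4, 2.28 and 2.0 on the log2 scale. The log2 fold change was 2.33 ± 0.35 (SE), 5.04-fold, with a limma adjusted p of 0.00025. The second Dlk1 probe set gave a larger difference, 11.66 ± 0.63 against 6.73 ± 0.65 (SD, n = 4 each), a log2 fold change of 4.93 ± 0.39 with a limma adjusted p of 7.7e-06. Both probe sets were called in the same direction and differed in size by more than their errors. The fractions were also scaled on poly-A spike-in controls in place of hybridisation controls. The brightest Dlk1 probe set then gave 0.58 (limma adjusted p = 0.13) and Plagl1 0.68 (limma adjusted p = 0.022), neither past 2-fold. The second Dlk1 probe set gave 3.18 and Nnat 1.87, and both kept their call.

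**Figure D2:**
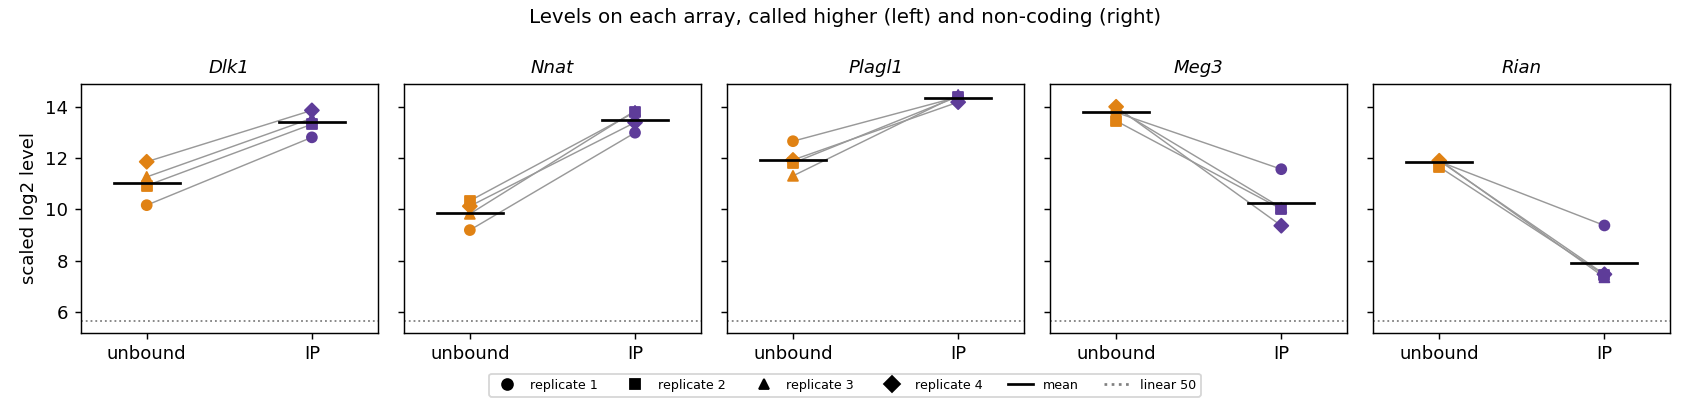
Scaled log2 level of Dlk1, Nnat, Plagl1, Meg3 and Rian on each unbound and immunoprecipitate (IP) array, with lines joining fractions of 1 preparation, black bars for means and a dotted line at a linear value of 50. The first 3 genes rise in every pair and the last pair falls in every pair, with immunoprecipitate 1 above the other immunoprecipitates for Meg3 (11.56) and Rian (9.37).

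Of the maternally expressed non-coding RNAs of the Dlk1 domain, Meg3 and Rian were called lower, and Mirg was not tested. Meg3 is a long non-coding RNA at chr12:109540996-109571729 that is largely nuclear, and Rian, at chr12:109603945-109661716, hosts small nucleolar RNAs and microRNAs. Meg3 stood at 11.56, 10.01, 10.06 and 9.36 in the immunoprecipitates and at 13.77, 13.44, 13.92 and 13.99 in the unbound fractions. Its log2 fold change was -3.54 ± 0.39 (SE), 11.6-fold lower, with a limma adjusted p of 5.2e-05. Rian stood at 9.37, 7.44, 7.35 and 7.47 in the immunoprecipitates and at 11.86, 11.65, 11.92 and 11.89 in the unbound fractions. It was 15.2-fold lower (limma adjusted p = 3.9e-05, log2 fold change -3.92 ± 0.42 SE), and 1.05% of tested genes had a lower fold change. For both RNAs the unbound arrays were close together and immunoprecipitate 1 was the highest of its fraction. Without that array the log2 fold changes were -3.97 for Meg3 and -4.41 for Rian.

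Of the 49 tested imprinted probe sets 4 were called higher and 22 lower, against 4.88% and 45.1% of all 17865 tested, and the fractions did not overlap for 8 that were higher and 26 that were lower, against 6.85% and 50.1%. Meg3 had 11 probe sets, and all 11 were tested and called lower. The 9 at or above 50 on all 8 arrays gave log2 fold changes from -4.29 to -2.99, and the other 2, under 50 in the immunoprecipitates, were at least 6.82- and 7.04-fold lower. 3 of the 4 Rian probe sets were tested and all 3 were called lower, 1 by the -3.92 given above and 2 with immunoprecipitates under 50 by at least 4.66- and 8.91-fold. These probe sets read the same transcripts and are not replicates of the comparison. The log2 difference Dlk1 minus Meg3 within an array was 1.25, 3.3, 3.48 and 4.49 in the immunoprecipitates and -3.62, -2.53, -2.67 and -2.14 in the unbound fractions. Its change of 5.87 between the fractions restates both fold changes free of any scaling by a constant, while its sign on an array compares different probes and has no meaning of its own.

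Mirg, the third non-coding RNA of the domain, lay under 50 on all 8 arrays with both of its probe sets. 1 of them read 3.71 to 3.75 in the immunoprecipitates and 2.16 to 2.18 in the unbound fractions, and with no filter on low values Mirg was called higher, at levels that give no fold. Begain, a gene at the edge of the domain that encodes a postsynaptic protein, had no probe set of its own. The RefSeq table places 54 microRNA hairpins on the plus strand between the start of Dlk1 and the end of Mirg, of which 1 lies within Meg3, 3 within Rian and 10 within Mirg. The arrays measured the host RNAs and not the mature microRNAs. The 3' arms that lie within the spans of the lower hosts Meg3 and Rian are given to show what those RNAs carry, from RefSeq in GRCm38.p6, with the seed (bases 2 to 8) in capitals.
mmu-miR-770-3p: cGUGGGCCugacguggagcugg
mmu-miR-341-3p: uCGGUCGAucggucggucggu
mmu-miR-1188-3p: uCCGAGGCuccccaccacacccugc
mmu-miR-370-3p: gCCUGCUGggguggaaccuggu
The first lies at chr12:109563744-109563765 within Meg3, and the others within Rian at chr12:109611556-109611576, chr12:109611877-109611901 and chr12:109618305-109618326. The 4 seeds differ from one another.

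**Figure D3:**
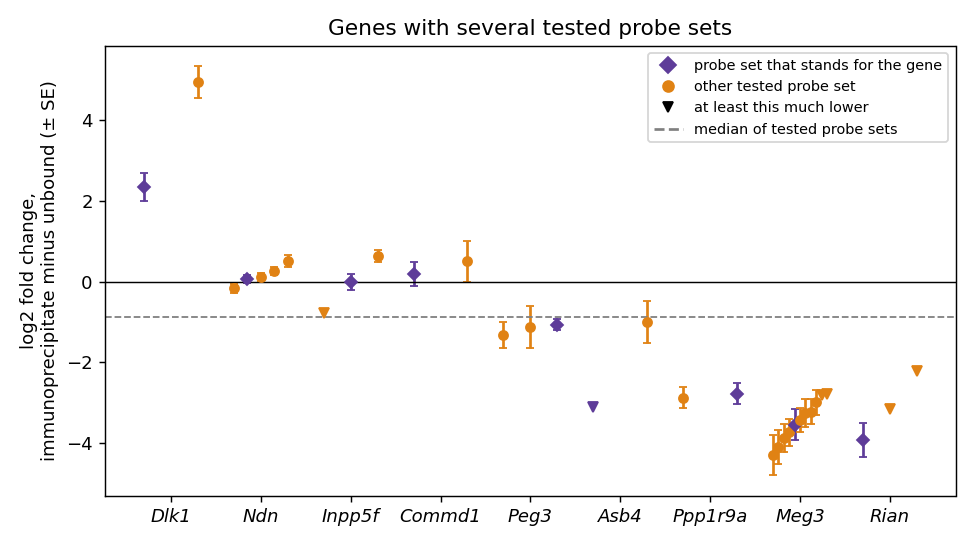
Log2 fold change (immunoprecipitate minus unbound, ± SE) of every tested probe set of 9 imprinted genes with several, diamonds for the probe set that stands for the gene. Triangles mark probe sets under 50 on some or all immunoprecipitate arrays, at the smallest size their drop can have. All 11 Meg3 and 3 Rian probe sets lie below -2 and both Dlk1 probe sets above 2, while the 5 Ndn probe sets lie between -0.17 and 0.51.

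The remaining non-coding members gave no test. All 6 probe sets of Kcnq1ot1, the antisense RNA that silences its domain on the paternal chromosome, and all 5 of Airn, the corresponding RNA over Igf2r, lay under 50 on all 8 arrays. H19 was represented only by a probe set that it shares with Mir675. Long non-coding RNAs outside the imprinted domains were used for comparison. Of 9 tested, 5 (55.6%) were called lower and 1 higher, with a median log2 fold change of -2.66, where 44.2% and 4.74% of all tested genes were lower and higher. Neat1 and Miat, 2 nuclear RNAs, were both 11.2-fold lower, Snhg11 10.5-fold and Malat1 9.55-fold, whereas the small nucleolar RNA host Snhg12 was 2.55-fold higher (limma adjusted p = 0.0020). Snhg14, a paternally expressed non-coding RNA of the Snrpn domain, was 13.3-fold lower (limma adjusted p = 0.00036, log2 fold change -3.74 ± 0.59 SE). Snhg14 is read from the paternal and Meg3 and Rian from the maternal chromosome, and all were lower. On immunoprecipitate 1 Snhg14 stood at 11.19 and Malat1 at 13.49, and on the other 3 between 7.86 and 9.09 and between 10.03 and 12.03, so these RNAs too were highest on the array where Meg3 and Rian were highest. Markers of several other cell types were also highest there on average. Over immunoprecipitates 1 to 4 the mean log2 level was 8.56, 8.17, 7.68 and 7.09 for astrocyte markers and 11.22, 11.13, 10.91 and 9.72 for oligodendrocyte markers. For thalamic neuron markers it was 8.45, 7.87, 7.75 and 5.88, and microglia and leptomeningeal fibroblast markers also peaked on immunoprecipitate 1. Endothelial and mural markers (6.37, 6.47, 4.98 and 4.56) and choroid plexus markers (10.68, 10.88, 10.82 and 6.72) peaked on immunoprecipitate 2. The part of those cells in the levels of Meg3 and Rian was not tested.

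Loss of the Snrpn to Ube3a domain from the paternal or the maternal chromosome underlies Prader-Willi and Angelman syndromes in humans. None of its 4 tested members was called in either direction. Snhg14 of the same domain, given above as lower, is not one of the members. Ndn encodes necdin, a MAGE family protein of postmitotic neurons. Its levels ran from 15.63 to 15.67 in the immunoprecipitates and from 15.48 to 15.75 in the unbound fractions, which overlapped, and its log2 fold change was 0.06 ± 0.09 (limma adjusted p = 0.61). The 4 other tested Ndn probe sets gave -0.17 (limma adjusted p = 0.19) to 0.51 (limma adjusted p = 0.012), under 2-fold. The probe set that stands for Ndn read above Hcrt, whose mean was 15.36 in the immunoprecipitates. Whether so high a level compresses a difference was not tested. Magel2, a second MAGE gene, stood at 6.59, 6.76, 6.98 and 8.03 in the immunoprecipitates and at 7.24, 6.89, 6.99 and 8.62 in the unbound fractions. In both fractions the fourth preparation was the highest, and the log2 fold change was -0.34 ± 0.45 (limma adjusted p = 0.52).

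Snrpn, which encodes the neuronal spliceosomal protein SmN, was 10.16, 10.38, 10.32 and 10.31 in the immunoprecipitates and 9.8, 9.8, 9.84 and 9.6 in the unbound fractions. The fractions did not overlap, but the difference of 0.53 ± 0.17 (limma adjusted p = 0.021) was under 2-fold. It rests on 1 probe set, since 6 others are shared with Snurf. Ube3a, the maternally expressed ubiquitin ligase, was 11.77, 10.96, 11.43 and 10.98 against 12.4, 12.04, 12.21 and 12.17. Its log2 fold change of -0.92 ± 0.21 (limma adjusted p = 0.0033) was close to the median of all probe sets and under 2-fold. Ube3a had 6 probe sets, of which this 1 was tested and 2 lay under 50 on all 8 arrays. The others were under 50 on every immunoprecipitate array, reached 50 on 2 or 3 unbound arrays and were lower in 4 of 4 pairs. At such levels they give no fold. Mkrn3, a ring finger protein gene, lay under 50 on all 8 arrays. Among 5 non-imprinted MAGE genes Nsmce3, of a chromosome maintenance complex, was 3.27-fold higher (limma adjusted p = 0.0056) and Magee1 2.50-fold lower (limma adjusted p = 0.00084), and the list's median was 0.22.

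In the Peg3 domain the neighbours Peg3 and Usp29 are transcribed away from each other from a shared start region, and their 300-base promoter windows overlap by 263 bases. Peg3, a large zinc finger protein gene, was 12.83, 12.69, 12.75 and 12.63 in the immunoprecipitates and 13.76, 13.64, 13.69 and 14.08 in the unbound fractions. It was called lower, by 2.10-fold (limma adjusted p = 0.00011, log2 fold change -1.07 ± 0.14 SE). Usp29, a relative of ubiquitin proteases, was 8.98, 9.56, 9.54 and 9.9 against 10.22, 10.02, 10.37 and 11.21, a log2 fold change of -0.96 ± 0.30 (limma adjusted p = 0.018) that missed 2-fold. Their log2 difference within an array changed by -0.11 between the fractions, against SDs of 0.46 and 0.34. Both values lie near the median of all probe sets, and without unbound replicate 4 Peg3 gave -0.97 and missed 2-fold. After median centring it gave -0.15 (limma adjusted p = 0.37). Zim1, the maternally expressed zinc finger gene next to them, lay under 50 on all 8 arrays.

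On chromosome 6, Asb4, an ankyrin repeat protein gene of hypothalamic neurons, was called lower. It stood at 5.75, 5.9, 5.62 and 5.75 in the immunoprecipitates, close to the minimum of 5.64 with 3 of 4 arrays at or above it, and at 8.83, 8.15, 8.25 and 10.26 in the unbound fractions. The unbound fractions were all higher and differed widely among themselves. The fold was at least 8.66 (limma adjusted p = 0.00017), and a second Asb4 probe set gave -1.0 ± 0.53 on the log2 scale (limma adjusted p = 0.12) with overlapping fractions. Calcr, the calcitonin receptor gene, was above 50 on 1 array, unbound replicate 4, where it stood at 7.48, and was not tested. Ppp1r9a, which encodes the actin-binding protein neurabin of dendritic spines, was 9.53, 9.35, 9.08 and 8.36 in the immunoprecipitates and 11.57, 11.68, 12.0 and 12.14 in the unbound fractions. It was 6.80-fold lower (limma adjusted p = 2.6e-05, log2 fold change -2.77 ± 0.27 SE), and its second tested probe set gave -2.87. Sgce, the epsilon-sarcoglycan gene, ran from 8.95 to 9.52 and from 9.64 to 10.52 and gave -0.96 ± 0.25 (limma adjusted p = 0.0073), under 2-fold. Peg10, its paternally expressed neighbour, lay under 50 on all 8 arrays.

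Cdkn1c, Igf2 and Dcn were called lower. Cdkn1c, the cyclin-dependent kinase inhibitor p57, lay under 50 on all 4 immunoprecipitate arrays and between 6.68 and 7.36 in the unbound fractions, so it was at least 2.41-fold lower (limma adjusted p = 2.3e-05). Igf2, an insulin-like growth factor made in adult brain mainly by the choroid plexus and leptomeninges, was 7.98, 8.57, 8.45 and 6.78 against 9.34, 11.01, 11.13 and 9.3. Both fractions varied widely between preparations but did not overlap, and Igf2 was 4.76-fold lower (limma adjusted p = 0.0042, log2 fold change -2.25 ± 0.54 SE). Dcn, which encodes the matrix proteoglycan decorin of fibroblasts, was 6.02, 5.95, 5.93 and 4.65 against 7.57, 7.51, 7.36 and 7.13, with 3 of 4 immunoprecipitates at or above 50. It was at least 2.85-fold lower (limma adjusted p = 0.0011).

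Tested markers of leptomeningeal fibroblasts were lower in the immunoprecipitate, as Igf2 and Dcn were. Of the 7 listed, 2 were tested, Fmod and Ogn, and both were called lower, with mean log2 levels from 3.92 to 6.6 in the immunoprecipitates and from 7.97 to 9.41 in the unbound fractions. In the unbound fractions this mean was 8.55, 9.21, 9.41 and 7.97, highest in replicates 2 and 3 as Igf2 was, while Dcn was highest in replicate 1. In the immunoprecipitates it was 6.6, 5.42, 5.43 and 3.92, highest in replicate 1. Dcn was also highest there, by 6.02 against 5.95 and 5.93, while Igf2 was highest in replicate 2. Ogn and Dcn lay near or under the minimum of 5.64 in that fraction. The mean, Igf2 and Dcn were all lowest in replicate 4 of both fractions. The means of all other listed markers of cells other than hypocretin neurons were also lowest on immunoprecipitate 4. All but the oligodendrocyte markers were lowest in unbound fraction 4 too. Of 5 choroid plexus markers 2 were tested and 1 was called lower, with means from 6.72 to 10.88 and from 6.51 to 12.73. Their part in the levels of Igf2 and Dcn was not tested. After median centring Igf2 gave -1.33 (limma adjusted p = 0.055) and Dcn -0.83 (limma adjusted p = 0.057), and neither was called. Igf2r, the receptor that clears Igf2, lay under 50 on all 8 arrays with both probe sets. Phlda2, a placental growth restrainer, and Slc38a4, an amino acid transporter gene, were also under 50 throughout.

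**Figure D4:**
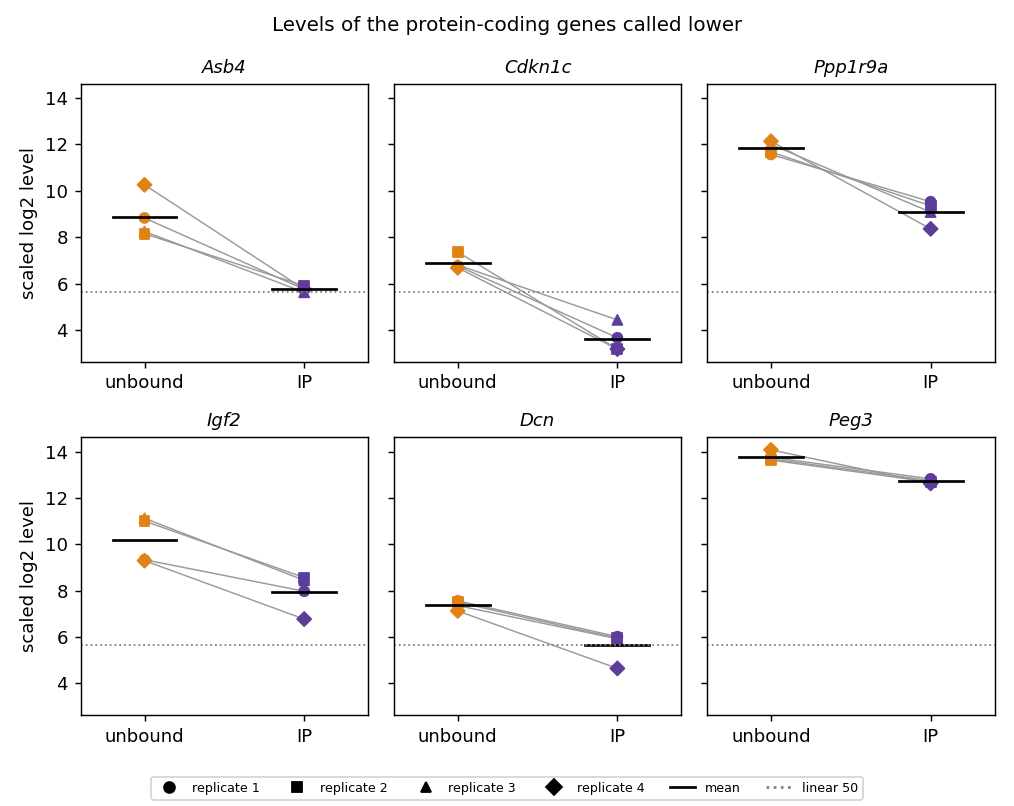
Scaled log2 level of the 6 protein-coding imprinted genes called lower, on each unbound and immunoprecipitate (IP) array, with lines joining fractions of 1 preparation and a dotted line at a linear value of 50. Asb4, Cdkn1c and Dcn lie near or below the dotted line in the immunoprecipitates, whereas Ppp1r9a, Igf2 and Peg3 stay above it on all arrays.

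Several imprinted genes were read strongly in both fractions and were not called. Nap1l5, a nucleosome assembly protein relative, was 14.94, 14.87, 14.85 and 15.14 in the immunoprecipitates and 15.23, 14.94, 14.72 and 15.44 in the unbound fractions (log2 fold change -0.13 ± 0.16, limma adjusted p = 0.48). Impact, an inhibitor of the translation control kinase Gcn2, ran from 13.11 to 13.45 and from 13.29 to 13.45 and gave -0.09 ± 0.13 (limma adjusted p = 0.58). Inpp5f, an inositol phosphatase gene imprinted only in some transcripts, gave -0.01 ± 0.20 (limma adjusted p = 0.98), and its other tested probe sets gave 0.64 (limma adjusted p = 0.0045, under 2-fold) and, with immunoprecipitate 2 under 50, a value at least 1.71-fold lower that did not pass the test (limma adjusted p = 0.098). For these genes the fractions overlapped on the probe set that stands for the gene, and each lay above the median of all probe sets, with 73.1% of tested genes lower for Nap1l5, 74.8% for Impact and 76.9% for Inpp5f.

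Mest, a hydrolase-like protein gene, was 7.78, 7.73, 7.87 and 8.19 against 7.41, 7.57, 7.31 and 7.7, without overlap, but its difference of 0.39 ± 0.23 did not pass the test (limma adjusted p = 0.15). Commd1, a copper metabolism gene whose intron holds Zrsr1, ran from 10.8 to 11.41 and from 10.29 to 11.36 and gave 0.19 ± 0.29 (limma adjusted p = 0.60). Zrsr1 had no probe set of its own. Grb10, an adaptor of insulin-type receptors that is maternal in most tissues and paternal in neurons, was 10.52, 10.13, 10.24 and 10.54 against 11.48, 10.71, 10.63 and 11.69 and gave -0.77 ± 0.27 (limma adjusted p = 0.029), under 2-fold. Trappc9, a vesicle trafficking subunit, was 7.19, 9.14, 8.89 and 8.51 against 8.37, 9.08, 8.92 and 9.16, with immunoprecipitate 1 the lowest of all 8 arrays, and gave -0.45 ± 0.41 (limma adjusted p = 0.36).

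By coding status, 3 of 23 tested protein-coding genes were higher (13%) and 6 lower (26.1%), where 4.74% and 44.2% of all tested genes were, with a median log2 fold change of -0.34, against a median of -3.73 for the 2 non-coding RNAs. The difference of medians, non-coding minus coding, was -3.39, and in the 4 pairs it was -1.72, -3.49, -4.19 and -3.94. With no filter on low values, which adds members near the floor, it was -0.97. It rests on Meg3 and Rian, which are neighbours in 1 domain, and 4 of the 6 listed non-coding RNAs could not be tested. By expressed allele, 0 of 9 tested maternal genes were higher and 6 (66.7%) were lower by limma, with a median of -2.77. Of 14 tested paternal genes 3 (21.4%) were higher and 2 (14.3%) lower, with a median of -0.05. The difference, maternal minus paternal, was -2.72, and in the 4 pairs it was -1.89, -2.3, -2.52 and -3.29. Asb4, Cdkn1c and Dcn passed the filter through their unbound fractions, and with these 3 at their bounds the maternal median was -1.51 and the difference -1.46. With 50 required on all 8 arrays, where Asb4 is read by its other probe set, the difference was -0.95. With protein-coding genes alone it was -1.71. Without members imprinted mainly outside neurons it was -3.1. A class names the allele known for the gene and not the allele read in this tissue. Of the 22 imprinted genes at or above 50 on all 8 arrays 3 were higher and 5 lower, against 4.19% and 37.4% of all such genes. Among these 22 the maternal minus paternal difference was -1.8, with 3 of 6 maternal genes lower, and of the 4 such maternal genes that are protein-coding only Ppp1r9a was called. Since the genes share arrays and domains and were listed with results known, these differences are descriptions and were not tested.

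Other imprinted genes and the proteins that keep imprints were examined as lists. Of 22 other tested imprinted genes 2 (9.09%) were called higher and 10 (45.5%) lower, where 4.74% and 44.2% of all tested genes were. Their median log2 fold change was -0.69. The glutaminyl cyclase Qpct, which forms the blocked amino terminus of peptides such as hypocretin-1, rose 4.55-fold (limma adjusted p = 5.8e-05), and the signal peptide peptidase H13 rose 4.42-fold (limma adjusted p = 0.0028). Besides Snhg14, the creatine synthesis enzyme Gatm fell 10-fold (limma adjusted p = 0.00015) and the lactonase Pon2 8.33-fold (limma adjusted p = 3.7e-05), and the phospholipid flippase Atp10a was at least 1.90-fold lower (limma adjusted p = 4.3e-05). Of 18 tested regulators of imprints and DNA methylation 0 were higher and 11 lower by limma, with a median of -1.65, where 44.2% of all tested genes were lower. Of the 18, 3 were under 50 on all immunoprecipitate arrays, Tet1 and Ezh2 among them. These 3 passed the filter through the unbound fractions and had to be lower, as did Atp10a above, and the count and median include them. The DNA methyltransferase Dnmt3a was at least 13.5-fold lower (limma adjusted p = 0.00011), the methylcytosine oxidases Tet2 and Tet1 at least 6.59- and 4.43-fold (limma adjusted p = 0.00018 and 0.00012) and the histone methyltransferase Ezh2 at least 3.88-fold (limma adjusted p = 4.7e-05).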

How the data were processed

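The authors normalized the deposited values with GCRMA, per the submitters' processing notes, and did so within each fraction, per the series' design text; no version of it is given in the sources used here. The values were used as log2 expression, as the authors deposited them, 1 per probe set and array, after 2-cycle amplification of 20 ng RNA per the labels. The fractions were brought to the same mean over 18 biotinylated hybridisation controls, which were 0.02 apart as deposited, with 1 constant each. The 17865 probe sets that reached 50 on the linear scale in 4 or more arrays entered a limma fit (version 3.58.1, R 4.3.3, eBayes with trend) and Benjamini-Hochberg adjustment over all of them. A gene was called at an adjusted p under 0.05 and at least 2-fold, and was represented by its brightest tested probe set, by the mean of all 8 arrays. Where a fraction was under 50 on some or all arrays, its values were raised to 50 and the fold is given as at least that size. Precision is limited by having 4 arrays in each fraction.

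Members, their classes and 12 gene lists were chosen with earlier results of these data known. All members are named; of the other lists, up to 4 called genes with the largest change in a direction. The labels number the preparations, so an immunoprecipitate and the unbound fraction of the same number are paired. Deviations from fraction means correlated at 0.44, 0.334, 0.255 and 0.587 between same-numbered arrays. Immunoprecipitate 2 with unbound fraction 3 gave 0.257, and immunoprecipitate 3 with unbound fraction 2 gave 0.238. These values do not tell preparations 2 and 3 apart, so their pairing rests on the labels. Within a fraction, arrays correlated at 0.9216 to 0.9832. The 3' minus 5' log2 signal of Gapdh ran from 2.12 to 4.5 in the immunoprecipitates and from 1.94 to 3.36 in the unbound fractions. Run on simulated data of 17865 probe sets for this comparison, the test found 73.1% of log2 changes of 1.5, 77.6% of 2 and 86.4% of 3, with 8 false calls among 17665. The simulation used independent noise and left those 17665 unchanged, while in the data 4.88% of probe sets were called higher and 45.1% lower. Its shares therefore need not hold for the data. Alternatives were the replicate block, other scalings, filters, probe set rules, no trend, no fold threshold and leaving out arrays; leaving out both arrays of replicate 1 or 4, and setting dim members at their bound, were added after seeing the data. All 38 members matched RefSeq genes and 31 had promoter windows. Plots used matplotlib 3.10.9.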

Additional observations from a re-analysis of the deposited data

Results flagged for a closer look

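In 5 of 49 groups of 4 arrays, 1 array stood apart from the other 3 by more than the 95% critical value of Dixon's ratio of gap to range, where chance gives about 1 in 20. Rian stood at 9.37 in immunoprecipitate 1, against 7.47 for the nearest other. Dcn was lowest in immunoprecipitate 4 at 4.65, with the nearest at 5.93. Inpp5f was highest in immunoprecipitate 4 at 14.04, with the nearest at 13.69. In unbound fraction 4 Blcap was highest at 13.26, with the nearest at 12.57, and Snrpn was lowest at 9.60, with the nearest at 9.80.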

How the results depend on the processing

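Nnat, Meg3, Rian and Ppp1r9a kept direction and call under all alternatives run. Cdkn1c did so under each alternative in which it was tested. It was under 50 on all 4 immunoprecipitate arrays and passed the filter through the unbound fractions, so it had to be lower. Its kept call is thus no further support, and with 50 required on all 8 arrays it was not tested. The replicate block changed no call: 3 genes higher and 8 lower, and differences of medians of -3.39 and -2.72. Scaling moved the counts. The median of all probe sets shifted by 0.92 under median centring, 0.84 under quantile normalization and -1.75 on poly-A controls. Median centring gave 7 genes higher and 5 lower, quantile normalization 6 and 5, and poly-A controls, themselves at mean log2 levels from 9.15 to 10.21 in the immunoprecipitates and from 6.62 to 9.63 in the unbound fractions, 1 and 21. Median centring added Blcap, Snrpn, Mest and Commd1 to the higher genes. The higher share of calls was thus 27.3% with the main scaling and 58.3%, 54.5% and 4.55% with these. With no fold threshold 5 were higher. With no filter on low values Mirg joined the higher and Kcnq1ot1 and Igf2r the lower genes, giving 4 and 10, all 3 under 50 on every array. With 50 required on all 8 arrays 5 were lower. Leaving out 1 array gave 3 to 4 higher and 7 to 10 lower. The difference non-coding minus coding was -0.97 with no filter on low values, where untested RNAs at the floor enter, and -4.05 to -3.03 leaving out 1 array. Maternal minus paternal was -2.09 after quantile normalization, -1.55 with no filter, -0.95 with 50 on all 8 arrays (where Asb4 is read by its other probe set), -1.97 as the mean of probe sets, -1.8 among genes at 50 on all 8 arrays, -1.71 for protein-coding genes and -1.46 with Asb4, Cdkn1c and Dcn at their bounds, a setting chosen after seeing the data. It was -2.87 to -2.44 leaving out 1 array and -3.1 without members imprinted mainly outside neurons. Asb4 lost its call when read by its other probe set (-1.0).

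Signs turned for genes that were not called. On poly-A controls Blcap gave -0.92, Ndn -1.69, Snrpn -1.22, Mest -1.36 and Commd1 -1.57. After median centring Magel2 gave 0.58, Ube3a 0.01, Grb10 0.15, Impact 0.84, Nap1l5 0.79, Inpp5f 0.92 and Trappc9 0.48. After quantile normalization Ndn gave -0.01, Magel2 0.78, Impact 0.13, Inpp5f 0.08 and Trappc9 0.47. Inpp5f gave 0.01 with no shift, 0.09 and 0.06 without both arrays of replicate 1 or 4, and -0.14 to 0.16 leaving out 1 array. Magel2 gave -0.66 to 0.05 leaving out 1 array, above 0 without unbound replicate 4, and Commd1 -0.10 without both arrays of replicate 1. The cause was not tested. Among other single-gene values 11 lost and 31 gained a call. Signal over background limits the 10 genes on the array that were not tested.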
